A study of Homo sapiens with 8 samples.

Results

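The SCF ubiquitin ligase and the neddylation enzymes that switch it on are represented here by 10 genes. They were SKP1, CUL1, RBX1, FBXO9, SKP2, BTRC and FBXW11 on the ligase side and NAE1, UBA3 and UBE2M on the neddylation side, 10 of the 14410 genes that could be tested. Their reads were collected over every splice junction that matched one of their GRCh38 introns in GENCODE 29 or shared a splice site with one, which gave 460 of 654181 junctions, 178 of them annotated. SKP1, FBXO9 and NAE1 were chosen because their values differed between these same libraries, so for these 3 genes the values are a description and no test is given. The other 7 genes were chosen for their function and were tested, though the list was drawn up with earlier results of these data known.

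HEK293, an established human embryonic kidney line, had been treated with LMI070 at 25 nM or with the solvent DMSO, with 4 libraries in each group. LMI070 (branaplam) is a small molecule that binds pre-mRNA together with the U1 snRNP and strengthens recognition of some weak 5′ splice sites, and the series concerns its use to control gene expression through splicing. Total RNA was depleted of ribosomal RNA, and the values are reads that cross a splice junction. LMI070 replicates 13 to 16 and DMSO replicates 9 to 12 were divided over lanes 7 and 8, with 2 libraries of each group in each lane. Uniquely mapped junction reads numbered 20369466 to 36131054 in the LMI070 libraries and 21975349 to 26716014 in the DMSO libraries. The libraries labelled LMI070 replicate 16 and DMSO replicate 12 lay apart from the others in a multidimensional scaling of all genes. Nothing in the labels ties the 4 libraries of each treatment to different cultures, and the p-values therefore measure only how these libraries vary, which may be technical. Vimentin (677 to 715 CPM over the 8 libraries), KRT8 (243 to 276 CPM) and NEFL (34.2 to 41.8 CPM), which HEK293 cells express, were present, PAX2 reached only 0.937 CPM, and blood, keratinocyte and liver markers (PTPRC, CD3E, KRT5, KRT14, ALB and APOA1) each stayed at or under 0.359 CPM. The fibroblast genes COL1A1 (16.8 to 29.1 CPM) and COL3A1 (1.69 to 3.901 CPM) were read in every library.

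In an SCF ligase, the cullin CUL1 is a rigid scaffold that holds the RING protein RBX1 at one end and the adaptor SKP1 at the other, and SKP1 carries 1 of many interchangeable F-box proteins that choose the substrate. The ligase works fully only when the ubiquitin-like protein NEDD8 is attached to the cullin. NEDD8 is activated by a heterodimeric E1 made of NAE1 and UBA3, passed to the E2 enzyme UBE2M and placed on CUL1 with the help of RBX1. The drug pevonedistat blocks that E1 and thereby stops most cullin-RING ligases.

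Junctions with at least 10 reads in LMI070 cells and 0 in DMSO cells lay in 2 of the 10 genes, SKP1 and FBXO9. The splice sites they use are shown first. All are from GENCODE 29 transcripts on GRCh38, given 5′ to 3′ on the strand of the gene. In the 5′ splice sites the capitals mark the last 3 bases of the exon and the first 6 bases of the intron. The first is the donor of an unannotated SKP1 exon (chr5:134175272-134175295, minus strand), the second a rarely used donor inside the terminal coding exon of FBXO9 (chr6:53097780-53097803, plus strand), and the third the donor of SKP1 exon 1, from which the reads into the unannotated exon come (chr5:134176843-134176866, minus strand).
SKP1 drug exon donor: ggatgagtgAGAGTAGGAtatttc
FBXO9 terminal exon donor: ttcttcgccAGAGTAAGGagctac
SKP1 exon 1 donor: acaccgaacACCGTGAGTagccgc
The donor of the SKP1 exon and the FBXO9 donor end their exon in AGA and continue with GTA, and the SKP1 exon 1 donor, from which 3 of the 5 SKP1 junctions leave, does not. Over all genes, 0.742% of the 145257 annotated donors with at least 20 reads ended in AGA and 1.61% ended in GA. Among the members, 0 of 127 such donors ended in GA, and the FBXO9 donor had too few reads to be counted there. The donors of the SKP1 exon and of FBXO9 were picked for reads in LMI070 cells alone. Whether their bases bear on those reads was not tested.

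The SKP1 exon had 3 acceptors, shown here because they decide its length, with the AG before the exon in capitals. They lie at chr5:134175380-134175409, chr5:134175383-134175412 and chr5:134175418-134175447, all on the minus strand.
SKP1 listed acceptor: tctgcatccttctccattaagcAGggacaa
SKP1 acceptor, 3 nt upstream of the listed one: tactctgcatccttctccattaAGcaggga
SKP1 acceptor, 38 nt upstream of the listed one: ccttttgttgtggtcttgtcacAGgaaggg
The first 2 overlap and lie 3 nt apart, and the last lies 38 nt upstream of the first.

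SKP1 (chr5:134148935-134177038, minus strand) is the adaptor between CUL1 and the F-box proteins. In LMI070 cells a small share of its transcripts gained an exon inside intron 1, which is 2832 nt long and lies in the 5′ untranslated region, ahead of the start codon. The exon begins at 134175385, 134175388 or 134175423 and ends at 134175284, so that it measures 102, 105 or 140 nt. No DMSO library had a read at any of its splice sites, which were picked for their lack of DMSO reads. The level of SKP1 as a whole stayed close to that of DMSO cells.

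Reads from exon 1 into the acceptor at 134175385 numbered 18, 17, 15 and 11 in LMI070 replicates 13, 14, 15 and 16 and 0 in each DMSO library. The acceptor at 134175423 had 10, 19, 11 and 7 reads in the LMI070 libraries and 0 in each DMSO library. The acceptor at 134175388 had 7, 4, 1 and 3 reads in the LMI070 libraries and again 0 in DMSO. Each of the 3 forms was therefore read in all 4 LMI070 libraries. Having 0 reads in DMSO was a condition for picking them, so nothing is read from their absence there. Of the reads that leave exon 1, 1.09% ± 0.162 (SD, n = 4) used the acceptor at 134175385 in LMI070 cells, against 0 of 5276 reads in DMSO cells, which allows a share of up to 0.0569%. The acceptor at 134175423 took 0.843% ± 0.334 and that at 134175388 took 0.248% ± 0.114 of those reads in LMI070 cells. The 3 acceptors together took 1.66%, 2.68%, 2.21% and 2.17% of the reads leaving exon 1 in LMI070 replicates 13 to 16, a mean of 2.18% ± 0.413. The upper limit for DMSO covers counting error only, and the SD is the spread over the 4 LMI070 libraries.

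The exon had similar numbers of reads in and out. Reads entered the exon 35, 40, 27 and 21 times and left it 40, 34, 17 and 27 times in LMI070 replicates 13, 14, 15 and 16. Of the 118 reads that left it for an annotated acceptor, 95 went to an annotated exon of 53 nt (134174462 to 134174514) further down the intron and 23 went directly to exon 2. The route to the 53-nt exon was read 32, 30, 11 and 22 times in the LMI070 libraries and 0 times in each DMSO library. The direct route was read 8, 4, 6 and 5 times in the LMI070 libraries and 0 times in DMSO. A minor donor 6 nt upstream, at 134175290, gave 5 reads in LMI070 libraries and 0 in DMSO libraries.

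**Figure D1:**
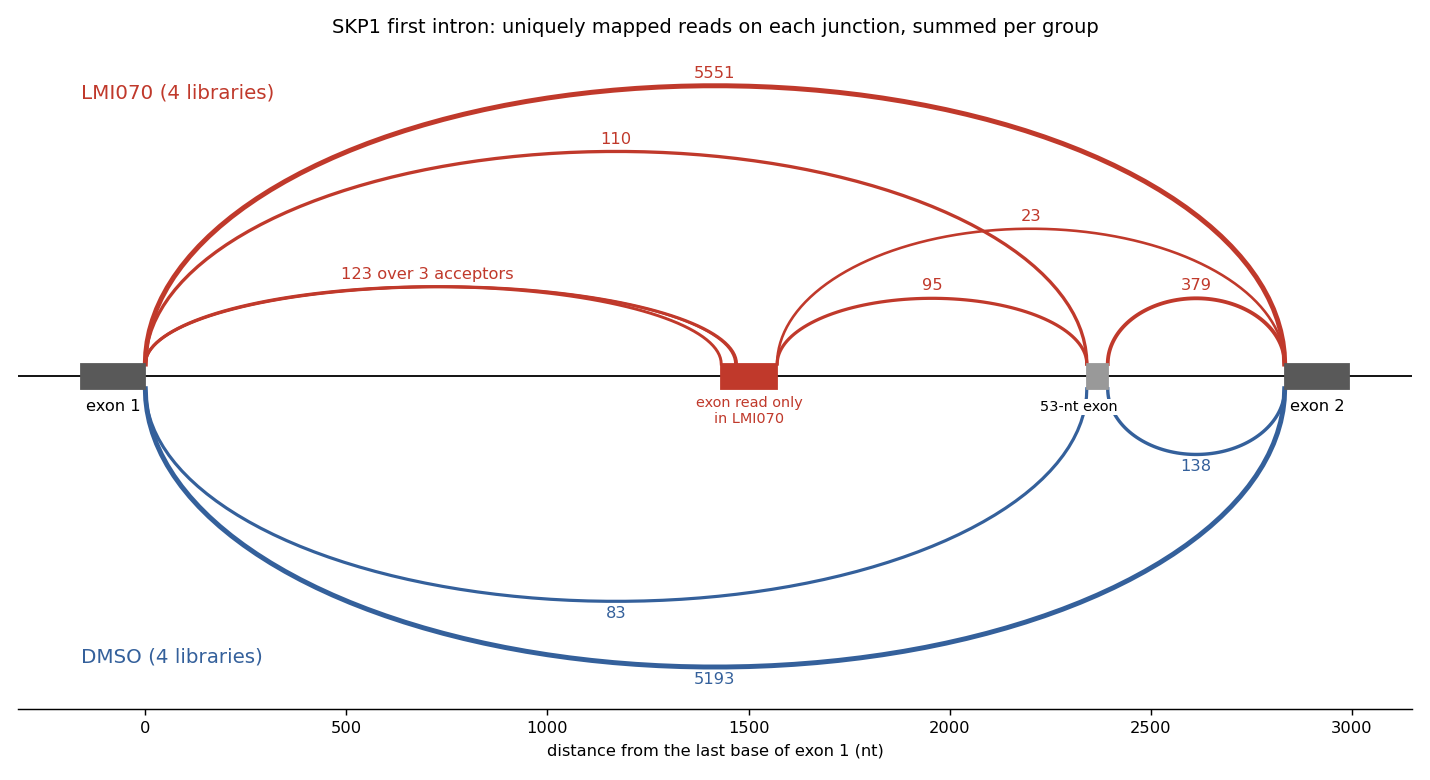
Junctions within the first intron of SKP1, drawn to scale along the intron (nt from the last base of exon 1), with uniquely mapped reads summed over the 4 LMI070 libraries (red, above) and over the 4 DMSO libraries (blue, below). Heights of the arcs carry no scale. The red exon received 123 reads from exon 1 over its 3 acceptors and passed on 95 and 23 reads in LMI070, and 0 reads touched it in DMSO. The junction from the 53-nt exon to exon 2 had 379 reads in LMI070 and 138 in DMSO.

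The 53-nt exon is part of the annotation and was also read in DMSO cells, and it was used more in LMI070 cells. Its junction to exon 2 had 141, 102, 53 and 83 reads in LMI070 replicates 13 to 16, against 33, 36, 34 and 35 reads in DMSO replicates 9 to 12. It made up 6.36% ± 1.62 of the reads into exon 2 in LMI070 cells and 2.58% ± 0.169 in DMSO cells (SD, n = 4 each), and the groups did not overlap. In CPM, reads scaled by library total and TMM factor, this junction stood at 3.46 ± 0.630 in LMI070 cells and 1.39 ± 0.118 in DMSO cells.

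Part of the reads of the 53-nt exon came from the unannotated exon, which was picked for having 0 reads in DMSO. The unannotated exon supplied 42.7%, 47.6%, 34.4% and 40.0% of the reads into the 53-nt exon in LMI070 replicates 13 to 16, and 0 of 86 reads in DMSO cells, which allows up to 3.49%. Exon 1 supplied it directly with 110 reads in LMI070 cells and 83 reads in DMSO cells, which was 2.03% ± 0.729 and 1.59% ± 0.286 of the reads leaving exon 1, with overlapping groups. The reads out of the 53-nt exon exceeded those into it in both groups, at 379 out against 225 in for LMI070 and 138 out against 86 in for DMSO.

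The ordinary SKP1 junction, exon 1 directly to exon 2, was still by far the main one. It took 92.3% ± 1.70 of the reads into exon 2 in LMI070 cells and 96.5% ± 0.589 in DMSO cells, and the groups did not overlap. Its level was 51.3 ± 6.91 CPM in LMI070 cells and 52.4 ± 5.59 CPM in DMSO cells, with overlapping groups. In LMI070 replicate 16 it was lowest, at 41.0 CPM, and the same library had the highest share of the 53-nt exon, 8.19%.

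**Figure D2:**
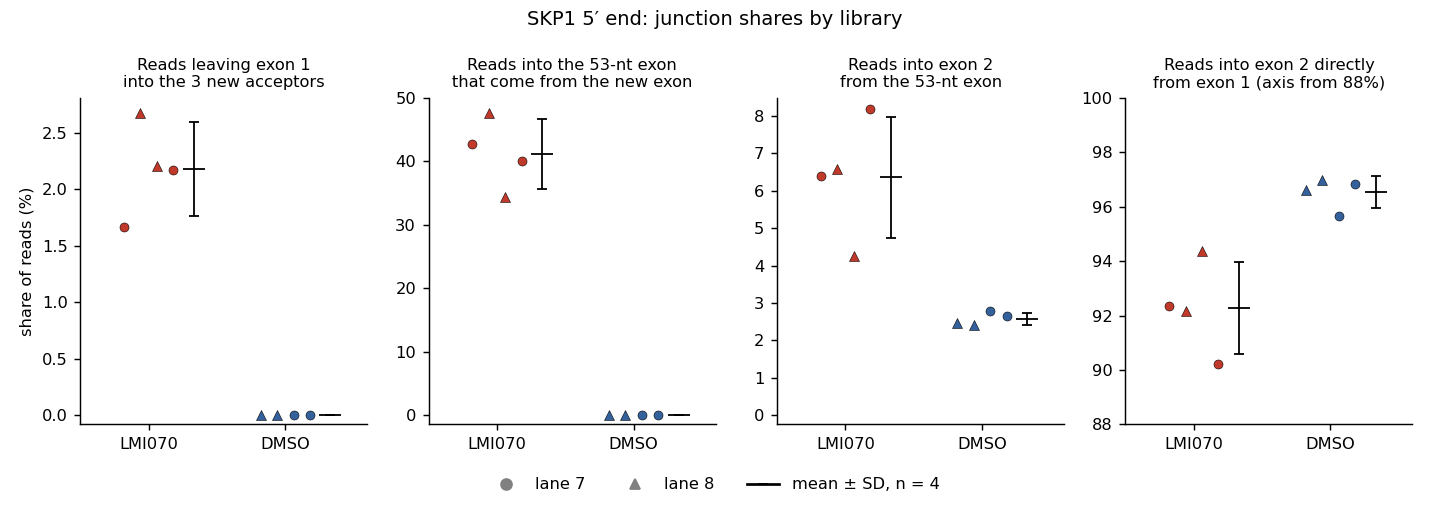
Shares of SKP1 junction reads in percent, 1 point per library, with LMI070 left of DMSO in each panel, mean ± SD beside the points and symbols for the lanes. The axis of the panel on reads directly from exon 1 does not start at 0. The LMI070 and DMSO points do not overlap in any of the 4 panels. In DMSO all 4 libraries lie at 0 in both panels that involve the unannotated exon, whose junctions were picked for having 0 reads in DMSO.

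Over the whole gene SKP1 had 357, 359, 351 and 324 CPM in LMI070 replicates 13 to 16, against 356, 346, 344 and 379 CPM in DMSO replicates 9 to 12. The ranges overlap. The log2 fold change was -0.03 ± 0.04 (SE), and it lay on either side of 0 in the lanes, at -0.09 in lane 7 and 0.02 in lane 8. Of its reads, 16787 fell in an intron that the annotation also gives to another gene, and without shared introns the log2 fold change was -0.04. Multiply mapped reads, which are left out here, came to 0.675% of the reads of SKP1, and to at most 0.896% in any of the 10 genes (NAE1).

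Junction usage was the share of reads on a junction among all reads at its 2 splice sites, and a junction was called at an adjusted p under 0.05 in edgeR's quasi-likelihood test with a change of at least 10 percentage points. Of the 162 junctions of the 10 genes with enough reads, 1 was called, the SKP1 junction between the unannotated exon and the 53-nt exon (134174515 to 134175283). Over all 129575 junctions tested, 0.0664% were called, 0.0394% with higher and 0.027% with lower usage in LMI070 cells. Since SKP1 was chosen on this contrast, nothing is read from its call. The usage of that junction was 38.1%, 44.1%, 28.95% and 36.7% in LMI070 replicates 13 to 16 and 0 in each DMSO library.

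Junctions with at least 10 reads in one group and 0 in the other were also counted. In LMI070 cells alone there were 6 among the members, 5 in SKP1 and 1 in FBXO9, and in DMSO cells alone there were 0. Over all genes there were 126 in LMI070 cells alone and 15 in DMSO cells alone. Outside SKP1, 31 unannotated junctions with 0 reads in DMSO had enough reads for a usage. The 5 closest to the SKP1 junction, by Euclidean distance of usage over the 8 libraries, were 2 in C12orf4 (chr12:4537515-4538408 and chr12:4536220-4537379), 2 in PDXDC2P (chr16:70031249-70031899 and chr16:70031067-70031185) and 1 in DYRK1A (chr21:37422653-37425689). The nearest, in C12orf4, had a usage of 33.7% ± 3.65 in LMI070 cells at a distance of 7.99 percentage points.

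CUL1 (chr7:148697914-148801036), the scaffold, had 361, 354, 347 and 352 CPM in LMI070 replicates 13 to 16, against 347, 355, 352 and 365 CPM in DMSO replicates 9 to 12. The groups overlap, and the log2 fold change was -0.01 ± 0.04 (SE; edgeR adjusted p = 0.973), with a 95% interval from -0.07 to 0.06. Of its 21 main introns, those with at least 1 in 3 of the reads of the deepest intron, 0 separated the groups.

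RBX1 (chr22:40951347-40973309) is the RING subunit that recruits the charged ubiquitin E2. It had 142, 154, 159 and 136 CPM in LMI070 replicates 13 to 16, against 157, 152, 156 and 173 CPM in DMSO replicates 9 to 12. The groups overlap, and the log2 fold change of -0.11 ± 0.05 did not pass (edgeR adjusted p = 0.488). The lanes differed, with -0.25 in lane 7 and 0.02 in lane 8. In lane 7 alone, with 2 libraries per group, the edgeR adjusted p was 0.0313, and 667 of 14278 genes tested were called. In the full design 18 of 14410 were called. RBX1 was the only one of the 7 genes chosen for function to pass under any alternative tried. Without DMSO replicate 12 and LMI070 replicate 16 its log2 fold change was -0.03 (edgeR adjusted p = 0.927). The lowest LMI070 value and the highest DMSO value were those of replicates 16 and 12, both in lane 7.

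**Figure D3:**
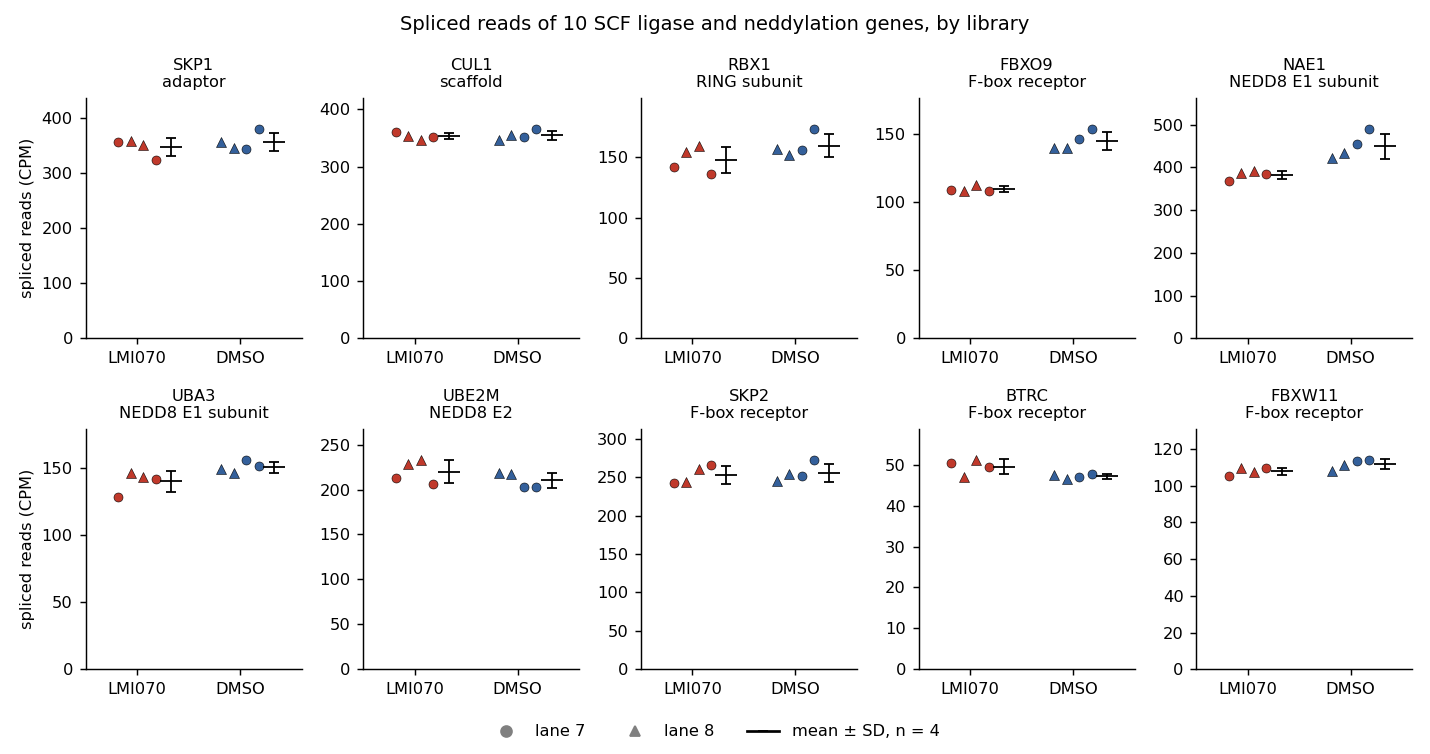
Spliced reads of the 10 genes in CPM, 1 point per library, LMI070 left of DMSO in each panel, with mean ± SD (n = 4) and symbols for the lanes. All axes start at 0. FBXO9 and NAE1, both chosen for their difference, are the 2 genes whose groups do not overlap, and both are lower in LMI070.

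FBXO9 (chr6:53051991-53100873, plus strand) is the F-box protein of an SCF ligase that has been linked to the turnover of the TEL2 and TTI1 proteins in multiple myeloma cells. Its spliced reads stood at 109, 108, 113 and 108 CPM in LMI070 replicates 13 to 16, against 140, 140, 146 and 153 CPM in DMSO replicates 9 to 12. Every LMI070 library was below every DMSO library. In bulk RNA, less of the transcript in each cell and fewer cells with the transcript cannot be told apart. The mean was 109.6 ± 2.18 CPM in LMI070 cells and 144.6 ± 6.50 CPM in DMSO cells, 24.2% lower in LMI070 cells, with a log2 fold change of -0.40 ± 0.04 (SE). It was -0.47 in lane 7 and -0.34 in lane 8. Of all 14410 genes tested, 0.104% were called lower and 4.08% had groups that do not overlap, but FBXO9 was chosen for its difference and nothing is read from this.

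The difference ran along the whole gene. All 12 main introns of FBXO9 had lower CPM in LMI070 cells than in DMSO cells, with log2 ratios from -0.52 to -0.23 and a median of -0.43. In 11 of the 12 the groups did not overlap, and over all 105254 annotated junctions with at least 200 reads 1.78% were lower with groups that do not overlap. Introns of one gene share their transcripts and are not independent of each other, and FBXO9 was chosen for its difference, so nothing is read from the count. The smallest differences were those of the first 2 main introns, -0.23 and -0.24, and the other 10 lay between -0.52 and -0.32. Intron 10 of this order (53093562 to 53093884) had 9.80 ± 0.852 CPM in LMI070 cells and 14 ± 1.49 CPM in DMSO cells. Intron 1 of this order (53065793 to 53071056) had 6.26 ± 0.802 CPM in LMI070 cells and 7.35 ± 0.253 CPM in DMSO cells, with overlapping groups.

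No junction of FBXO9 was called. The 17 that could be tested changed by at most 1.82 percentage points. With at least 10 reads, 1 unannotated junction was read in LMI070 cells alone. It had too few reads for a test and was singled out after its values were seen. It left the donor at 53097791, inside the exon that holds the end of the coding sequence in the main transcripts, and landed at 53101118, 245 nt beyond the annotated end of the gene. It had 5, 2, 0 and 3 reads in LMI070 replicates 13 to 16 and 0 in each DMSO library. Against the reads that enter the terminal exon, this was 10 of 964 reads in LMI070 cells (1.04%) and 0 of 1236 in DMSO cells, which allows up to 0.243%.

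Further unannotated junctions lay downstream on the same strand, beyond the annotated end of FBXO9. A stretch of 119 nt from the landing site was joined to 53101985 by 4 reads (2, 2, 0 and 0 in LMI070 replicates 13 to 16). The following stretch of 74 nt was joined to 53103192 by 5 reads (0, 3, 1 and 1). These stretches are inferred from the edges of the junctions. Whether the junctions lie on the same transcript was not tested. The 3 junctions together had 7, 7, 1 and 4 reads in the LMI070 libraries and 0 in each DMSO library. An annotated intron from the same donor (53097792 to 53098160) had 6 reads in LMI070 cells and 5 in DMSO cells. Whether these few reads bear on the lower spliced reads of FBXO9 was not tested.

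The other F-box members, chosen for function, did not pass the test. SKP2, which directs the ubiquitination of the cell cycle inhibitor p27, had 243, 244, 261 and 266 CPM in LMI070 libraries, against 245, 255, 252 and 272 CPM in DMSO libraries (log2 fold change -0.01 ± 0.04, edgeR adjusted p = 0.935). BTRC and FBXW11 encode the closely related beta-TrCP proteins, which recognise phosphorylated beta-catenin and IkappaB. BTRC (chr10:101354033-101557321) had 50.4, 47.0, 51.1 and 49.5 CPM in LMI070 libraries, against 47.4, 46.4, 47.0 and 47.9 CPM in DMSO libraries. FBXW11 (chr5:171861549-172006873) had 105.5, 109.5, 107.5 and 109.5 CPM in LMI070 libraries, against 108.3, 111.4, 113.8 and 114.0 CPM in DMSO libraries. The groups overlap in all 3 genes. The log2 fold change was 0.07 ± 0.05 for BTRC (edgeR adjusted p = 0.656) and -0.05 ± 0.04 for FBXW11 (adjusted p = 0.706).

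NAE1 (chr16:66802875-66873256, minus strand) is the regulatory subunit of the NEDD8 E1. It had 369, 386, 391 and 384 CPM in LMI070 replicates 13 to 16, against 421, 433, 454 and 489 CPM in DMSO replicates 9 to 12. Every LMI070 library was below every DMSO library, by the least in lane 8. NAE1 was chosen for its difference, so nothing is read from this. The mean was 382.5 ± 9.49 CPM in LMI070 cells and 449.3 ± 29.8 CPM in DMSO cells, 14.8% lower in LMI070 cells, with a log2 fold change of -0.23 ± 0.04 (SE). It was -0.33 in lane 7 and -0.14 in lane 8, and -0.19 without DMSO replicate 12 and LMI070 replicate 16.

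All 19 main introns of NAE1 were lower in LMI070 cells, with log2 ratios from -0.32 to -0.17 and a median of -0.23. In 9 of the 19 the groups did not overlap. As for FBXO9, nothing is read from this count beside the 1.78% of all such junctions. The intron from 66817488 to 66818527 had 27.4 ± 0.349 CPM in LMI070 cells and 32.02 ± 0.712 CPM in DMSO cells, and that from 66823307 to 66823528 had 19.1 ± 1.31 CPM in LMI070 cells and 21.9 ± 3.86 CPM in DMSO cells, with overlapping groups.

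Of the 82 junctions of NAE1, 25 had enough reads for a test of usage. These 25 changed by at most 0.738 percentage points, and 0 were called, beside 0.0664% of all junctions tested. Whether any junction bears on the lower reads of NAE1 was not tested. With at least 10 reads, 0 NAE1 junctions were read in LMI070 cells alone. Among those with fewer reads, annotated or not, 2 were read in at least 2 LMI070 libraries and in no DMSO library. In the other direction, 3 were read in at least 2 DMSO libraries and in no LMI070 library. The same count was not made over all genes, so nothing is read from these numbers. Junction tables hold no reads within introns, so a retained intron would not be seen.

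**Figure D4:**
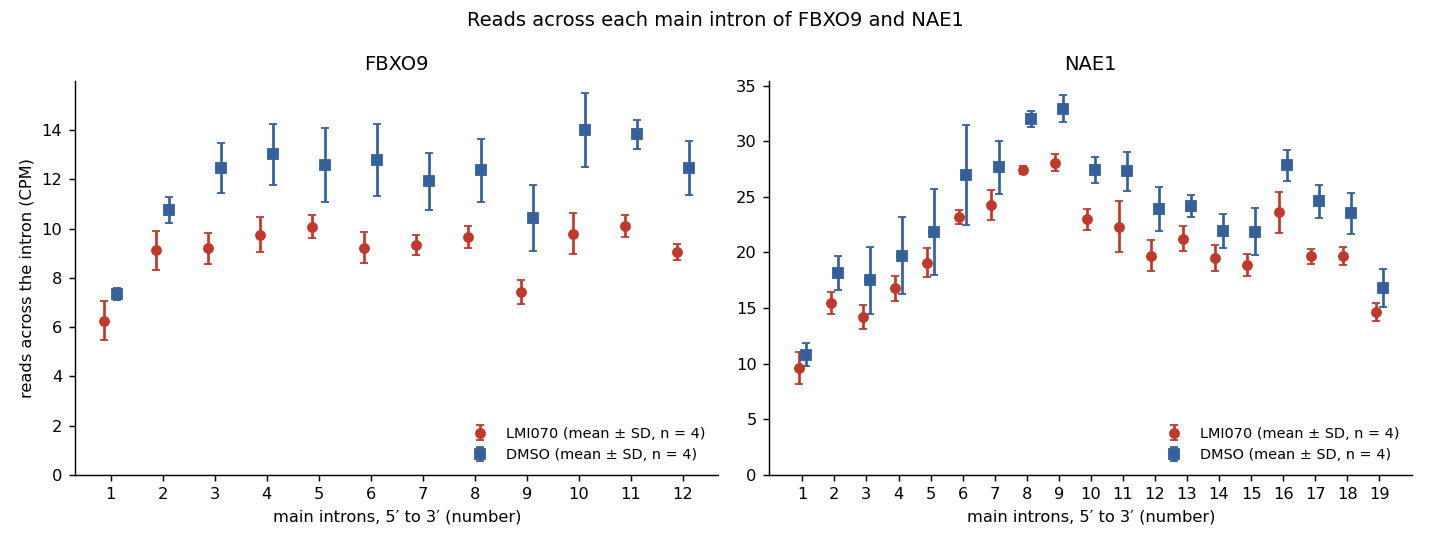
Reads across each main intron of FBXO9 (12 introns) and NAE1 (19 introns), in order from the 5′ end, as mean CPM ± SD over 4 LMI070 libraries (red circles) and 4 DMSO libraries (blue squares). Every LMI070 mean lies below its DMSO mean. In FBXO9 the first 2 introns show the smallest differences.

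UBA3 (chr3:69054730-69080408), the catalytic partner of NAE1, had 128, 146, 143 and 142 CPM in LMI070 replicates 13 to 16, against 149, 146, 156 and 151 CPM in DMSO replicates 9 to 12. The groups overlap through LMI070 replicate 14 and DMSO replicate 10. The log2 fold change of -0.11 ± 0.05 did not pass (edgeR adjusted p = 0.462), with -0.19 in lane 7 and -0.03 in lane 8. All 17 of its main introns had lower means in LMI070 cells, and 3 separated the groups, beside 1.78% of all annotated junctions with at least 200 reads that were lower in this way. These introns share transcripts and are not independent.

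UBE2M (chr19:58555712-58558960), the NEDD8 E2 that serves CUL1, had 212.5, 228.5, 232.7 and 206.4 CPM in LMI070 libraries, against 217.9, 217.2, 202.5 and 203.3 CPM in DMSO libraries. The groups overlap, and the log2 fold change was 0.06 ± 0.04 (edgeR adjusted p = 0.555), with a 95% interval from -0.01 to 0.14. None of its 5 main introns was lower in LMI070 cells. The 3 E1 and E2 genes had values on both sides of 0. Only NAE1 separated the groups, as 4.08% of all genes tested did. NAE1 was chosen for its difference and the other genes for function, so nothing is read from this.

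Among the 7 genes chosen for function, 0 passed the gene test, by edgeR and by DESeq2, and 1 of 7, UBA3, had an unadjusted p under 0.05. Over all genes 0.125% were called by edgeR and 10.2% had an unadjusted p under 0.05. None of their 105 tested junctions was called, and 1 had an unadjusted p under 0.05. Over all junctions tested these shares were 0.0664% and 3.1%. The largest change in usage among them was 5.81 percentage points in FBXW11, not past the test. The median log2 fold change of these 7 genes was -0.014, beside 0.003 over all genes.

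The wider cullin-RING system was looked at through 111 further genes, of which 109 had enough reads. They were other cullins and RING partners (8), other adaptors and receptors (11), F-box genes (55, with FBXL14 and FBXO43 not measured), NEDD8 conjugation (7), NEDD8 removal and cullin exchange (13), and ubiquitin E1, E2 and E3 partners (17). By edgeR 0 were higher and 0 were lower past the test, beside 0.0208% and 0.104% of all genes. An unadjusted p under 0.05 was found for 12 of 109 (11%), beside 10.2% of all genes. The median log2 fold change was -0.005, beside 0.003 over all genes. Of their 1261 tested junctions, 0 were called and 3.49% had an unadjusted p under 0.05, beside 3.1% of all junctions tested.

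Genes of this list with the smallest p in each direction, none past the test, were the following. CCNF, the F-box protein cyclin F, had 106.2 ± 5.33 CPM in LMI070 cells and 94.2 ± 4.52 CPM in DMSO cells, with overlapping groups (log2 fold change 0.17 ± 0.05, edgeR adjusted p = 0.283). CUL9, an atypical cullin, had a log2 fold change of 0.19 ± 0.07 (edgeR adjusted p = 0.387), and FBXO27, a receptor for glycoproteins, 0.40 ± 0.14 (adjusted p = 0.358) at only 3.59 ± 0.273 CPM in LMI070 cells and 2.748 ± 0.349 CPM in DMSO cells.

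On the lower side, FBXO22 had a log2 fold change of -0.17 ± 0.05 (edgeR adjusted p = 0.329) and FBXO4 of -0.23 ± 0.08 (adjusted p = 0.355). FBXO22 stood at 80.8 ± 5.74 CPM in LMI070 cells and 90.7 ± 3.43 CPM in DMSO cells, and FBXO4 at 12.04 ± 0.565 CPM in LMI070 cells and 14.2 ± 0.935 CPM in DMSO cells. In both genes the groups do not overlap, as in 4.08% of all genes tested. Both were picked for a small p, so nothing is read from this. FBXO9, at -0.40, lay lower than these F-box genes, but it was chosen for its difference, so nothing is read from this order.

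**Figure D5:**
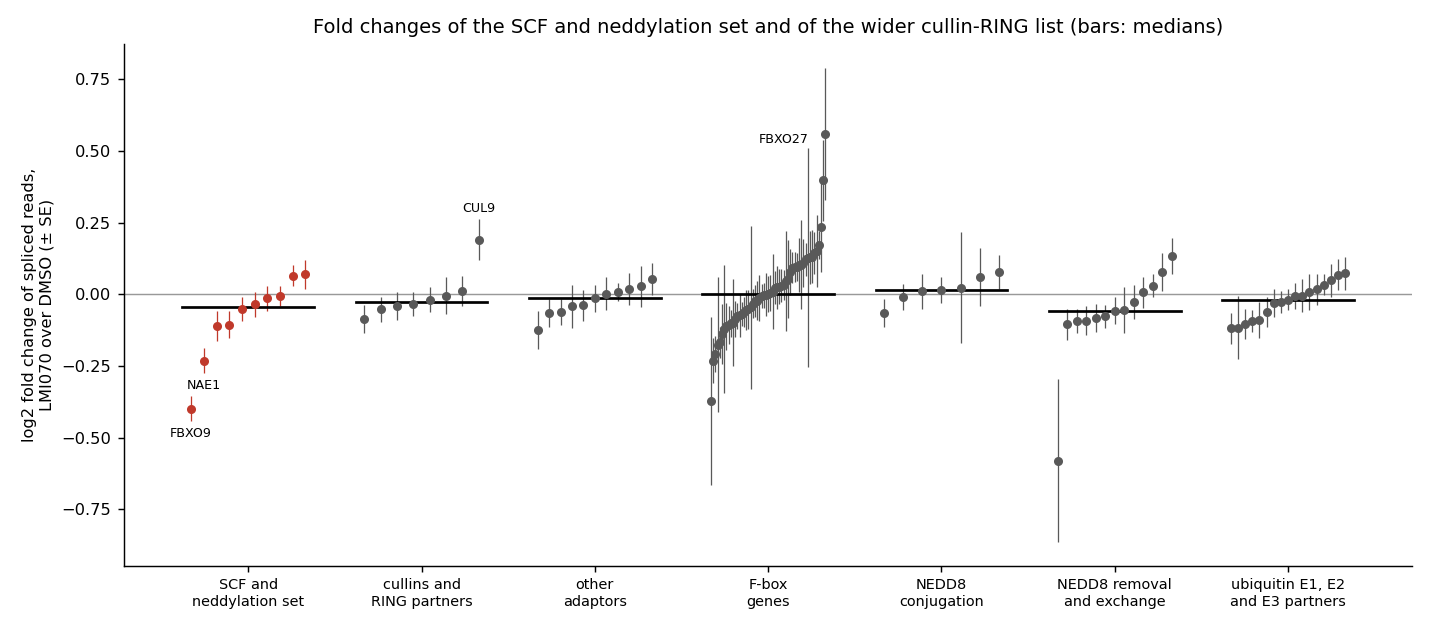
Log2 fold change of spliced reads, LMI070 over DMSO, with its SE, for the 10 SCF and neddylation genes (red) and for the 109 measured genes of the wider list by group (grey), each group sorted by value. Black bars are medians. FBXO9 and NAE1, both chosen for their difference, are the lowest of the 10 genes. The medians of the wider groups lie between -0.06 and 0.01.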

How the data were processed

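The deposited tables are splice junction tables, 1 per library. Per the file headers and labels, their values are raw counts of uniquely and of multiply mapped reads crossing each junction, without normalization by the authors. Per the submitters' processing notes, the aligner was STAR 2.6.0c and the build GRCh38. Read filters and the annotation used in the alignment are not given in the sources used here. The 10 genes and the gene lists were chosen with earlier results of these data known.

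Uniquely mapped counts were matched to GENCODE 29 introns. Spliced reads per gene are sums over annotated introns. The tables mark some annotated introns as having no strand (589 junctions, 68231 reads), and these were given the strand of the annotation. Genes kept by edgeR's expression filter (14410) received TMM factors and were fitted with edgeR 4.0.16 under R 4.3.3 (quasi-likelihood F test, lane and treatment in the model, Benjamini-Hochberg over all genes). The SE was derived from the F statistic. CPM are these counts divided by the TMM-scaled library total. CPM sums grow with the number of introns, so levels are not compared between genes. Junction usage was tested on paired counts, with a coefficient per library, for junctions with at least 20 reads in all and 10 at their splice sites in each library. A count of 0 allows up to 3 counts over the group, for counting error only. DESeq2 1.42.0 was an alternative. Genes were named by rule: all members, and the 3 genes of the wider list each way with the smallest p where fewer were called. Some genes that the rule or the lists name are not reported here.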

Additional observations from a re-analysis of the deposited data

Results flagged for a closer look

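In 5 of 72 groups of 4 libraries examined, 1 library lay far from the other 3 (gap over range above Dixon's 95% value). Where 3 libraries are tied, the gap equals the range however small it is, so the count is not set against chance. FBXO9 in LMI070 replicate 15 stood at 112.8 CPM, above 108.3 to 109.0 CPM in the other LMI070 libraries and still below every DMSO library. SKP2 had 1 unannotated junction (36177293 to 36178597) at 2.37% usage in LMI070 replicate 16, against 0.747% to 0.993% in the other LMI070 libraries. The remaining 3 were annotated junctions at 100% in 3 libraries and just under it in the fourth. These were UBE2M at 99.95% in LMI070 replicate 13 (58556230 to 58556315), CUL1 at 99.29% in DMSO replicate 9 (148766724 to 148767618) and NAE1 at 99.83% in DMSO replicate 12 (66806027 to 66808520).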

How the results depend on the processing

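With 4 libraries per group, the count of calls among the 7 genes chosen for function stayed at 0 under every alternative except lane 7 alone, where it was 1 (RBX1). In the wider list it was 1 without a low-count filter and 3 in lane 7 alone (among them COPS6, higher, and FBXO22, lower), where only 2 libraries per group entered and 667 genes were called over all genes, against 18 in the full design, 47 in lane 8 alone and 284 without the filter. Leaving out 1 library at a time kept 0 calls in both gene sets, 1 called junction in the members and 0 in the wider list. Log2 fold changes without 1 library ranged from -0.42 to -0.37 for FBXO9, from -0.26 to -0.19 for NAE1 and from -0.05 to 0.01 for SKP1. Lanes moved FBXO9 to -0.47 (lane 7) and -0.34 (lane 8), and NAE1 to -0.33 and -0.14. Small values changed sign. CUL1 was 0.01 without DMSO replicate 12 and LMI070 replicate 16, and without 1 library lay between -0.0181 and 0.0065. RBX1 was 0.0226 and SKP2 0.0146 in lane 8, and SKP2 lay between -0.0411 and 0.0181 without 1 library. The cause was not tested. Called junctions in the members numbered 0 with only the donor in the denominator, since no DMSO read leaves the donor of the SKP1 exon, and 2 with only the acceptor, both SKP1 junctions into the 53-nt exon. The SKP1 share at 134175385 became 35.9% against reads that skip to the 53-nt exon, a smaller denominator by construction, and lay between 1.04% and 1.17% without 1 library. The shares over 3 acceptors and of the 53-nt exon were added after seeing the data, and their differences from DMSO lay between 2.02 and 2.35 and between 3.17 and 4.49 percentage points without 1 library. No paired analysis was possible because the groups share no replicate numbers. Depth limits the unannotated junctions at and beyond the end of FBXO9, read 19 times in all, and SKP1 forms under the limits given.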

Other observations

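Unannotated junctions took a small share of the reads of every member, over both groups together. The share was highest in RBX1, at 2.10% of 32306 reads over 16 unannotated junctions, followed by FBXO9 at 1.35% of 26470 reads and SKP2 at 0.977% of 52942 reads. It was lowest in FBXW11, at 0.145% of 22727 reads. Junctions of the members read in at least 2 libraries of one group and in none of the other were also counted, annotated or not. Of these, 18 belonged to LMI070 cells and 7 to DMSO cells, and 10 of the 18 lay in SKP1. Outside SKP1 the numbers were 8 for LMI070 and 7 for DMSO. This count was not made over all genes, so nothing is read from it about the members.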
